A study of Homo sapiens with 23 samples.

Results

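The loops described here each joined the ends of 2 different protein-coding genes in the T47D progesterone receptor HiChIP lists. A loop was counted when each of its 5 kb bins held the lowest or the highest coordinate of a RefSeq protein-coding gene (GRCh38.p14, 19974 genes) and the bins had no such gene in common. There were 392 of them among 9591 listed loops in the library labelled T30, and 284 among 7075 in the library labelled T0. They joined 600 distinct pairs of genes in T30 and 446 in T0.

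T47D cells are a long-established breast cancer line with a high level of progesterone receptor. Both libraries were made with an antibody against this receptor, after culture in charcoal-treated serum and then without serum per the growth protocol. The title of the T30 library contains PR5020, which was read as the receptor plus R5020, a synthetic progestin named in the treatment protocol. Neither the dose nor the unit of time is stated for this library. T0 carries no agent in its title. Each condition was 1 library, so no difference between them has a replicate check, and no test was made. Loop lists hold no RNA levels, and the identity of the cells was not checked against markers here. The listed loops held 135538 contacts in T30 and 127457 in T0, where a contact is a read pair that joins both bins. The sequencing depth behind these totals is unknown. A loop missing from a list had no count given there, and absence from a list is not absence of contact. The lists also differ at short range: the shortest loop spanned 20 kb in T30 and 10 kb in T0.

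In HiChIP, nearby pieces of chromatin are ligated to each other and then pulled down with an antibody, so a listed loop reflects both contact and enrichment. Promoters lie at the starts of genes, and active promoters can gather in the same nuclear neighbourhood. The progesterone receptor is a hormone-dependent transcription factor that binds mostly at enhancers, and the protein CTCF anchors many loops in human cells. Neighbouring genes of one family commonly arose by duplication and lie in tandem.

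The promoters at the ends of 4 of these loops are shown from RefSeq (GRCh38.p14), each from 250 bases before to 50 bases after the start site. They belong to the loop with most contacts that had identical bins in both lists (NR6A1 with WDR38), to the pair with most contacts in T30 (ACOT4 with ACOT6), to the first pair of the keratin group (KRT37 with KRT38), and to a pair of transcription regulators seen in T0 (MED1 with CDK12). Capitals mark a match to the progesterone response element core (an inverted pair of half-sites around a spacer), to the single half-site TGTTCT, or to the CTCF core, on either strand. Matches may overlap, since a core can hold a half-site.

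NR6A1 lies on the minus strand with its window at chr9:124771262-124771561, and WDR38 on the plus strand at chr9:124853210-124853509.
NR6A1: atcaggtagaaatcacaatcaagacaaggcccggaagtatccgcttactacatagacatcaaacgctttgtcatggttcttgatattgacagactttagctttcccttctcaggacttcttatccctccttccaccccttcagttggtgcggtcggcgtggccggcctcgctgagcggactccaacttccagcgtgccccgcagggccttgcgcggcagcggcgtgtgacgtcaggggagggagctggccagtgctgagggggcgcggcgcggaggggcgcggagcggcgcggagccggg
WDR38: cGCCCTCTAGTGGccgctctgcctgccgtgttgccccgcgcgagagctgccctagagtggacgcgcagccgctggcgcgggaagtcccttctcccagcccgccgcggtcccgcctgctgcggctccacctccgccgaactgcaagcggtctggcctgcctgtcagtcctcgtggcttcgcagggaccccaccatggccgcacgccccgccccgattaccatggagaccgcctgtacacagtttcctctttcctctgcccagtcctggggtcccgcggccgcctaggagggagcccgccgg

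ACOT4 lies on the plus strand with its window at chr14:73591623-73591922, and ACOT6 on the same strand at chr14:73610695-73610994.
ACOT4: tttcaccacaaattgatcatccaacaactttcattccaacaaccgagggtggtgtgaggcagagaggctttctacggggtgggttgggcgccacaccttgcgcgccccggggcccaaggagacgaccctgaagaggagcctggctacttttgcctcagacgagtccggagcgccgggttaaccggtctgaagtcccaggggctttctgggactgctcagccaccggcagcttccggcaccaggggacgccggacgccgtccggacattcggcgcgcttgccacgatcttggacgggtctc
ACOT6: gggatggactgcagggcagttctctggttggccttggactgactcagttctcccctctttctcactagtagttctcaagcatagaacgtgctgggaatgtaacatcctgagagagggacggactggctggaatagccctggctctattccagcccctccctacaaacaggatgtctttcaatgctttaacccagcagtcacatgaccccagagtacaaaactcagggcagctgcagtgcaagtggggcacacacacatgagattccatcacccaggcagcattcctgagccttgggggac

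KRT37 lies on the minus strand with its window at chr17:41424536-41424835, and KRT38 on the same strand at chr17:41440934-41441233.
KRT37: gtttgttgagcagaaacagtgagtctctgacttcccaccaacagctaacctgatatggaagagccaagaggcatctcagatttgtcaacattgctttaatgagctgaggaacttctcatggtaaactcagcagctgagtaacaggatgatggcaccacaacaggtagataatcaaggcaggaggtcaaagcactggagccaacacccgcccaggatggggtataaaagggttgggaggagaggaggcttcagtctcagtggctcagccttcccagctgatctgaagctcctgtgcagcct
KRT38: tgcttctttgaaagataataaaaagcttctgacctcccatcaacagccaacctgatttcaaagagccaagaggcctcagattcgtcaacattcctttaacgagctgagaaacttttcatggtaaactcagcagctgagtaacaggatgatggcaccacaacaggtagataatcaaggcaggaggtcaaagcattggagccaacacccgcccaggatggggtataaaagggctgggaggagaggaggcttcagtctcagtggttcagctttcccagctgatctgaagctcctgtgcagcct

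MED1 lies on the minus strand with its window at chr17:39451214-39451513, and CDK12 on the plus strand at chr17:39461236-39461535.
MED1: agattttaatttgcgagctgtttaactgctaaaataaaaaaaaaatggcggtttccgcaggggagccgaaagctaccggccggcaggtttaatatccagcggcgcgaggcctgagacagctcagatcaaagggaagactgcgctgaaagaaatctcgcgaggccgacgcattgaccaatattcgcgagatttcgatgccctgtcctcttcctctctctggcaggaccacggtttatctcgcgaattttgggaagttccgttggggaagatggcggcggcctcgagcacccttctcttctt
CDK12: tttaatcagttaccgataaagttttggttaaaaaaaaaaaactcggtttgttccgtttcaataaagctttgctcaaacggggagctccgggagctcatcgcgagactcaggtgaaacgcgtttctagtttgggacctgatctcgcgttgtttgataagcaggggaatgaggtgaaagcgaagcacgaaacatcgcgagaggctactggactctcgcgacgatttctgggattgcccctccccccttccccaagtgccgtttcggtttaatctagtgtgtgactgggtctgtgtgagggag

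Among these 8 windows the only match was a CTCF core at the upstream end of the WDR38 window. The KRT37 and KRT38 windows were near copies, with 271 of 298 aligned bases identical (90.9%). By the same global alignment the identity of aligned bases was 69.1% for MED1 and CDK12, 61.4% for NR6A1 and WDR38, and 59.0% for ACOT4 and ACOT6. These shares leave out gaps. With gaps counted they were 47.1%, 46.6% and 43.9% in that order, and 89.7% for KRT37 and KRT38. No unrelated windows were aligned for comparison, so the lower values are not shown to mean likeness. The assignment of reads between copies as similar as KRT37 and KRT38 was not checked.

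Loops joining ends of 2 genes made up 4.09% of listed loops in T30 and 4.01% in T0 (exact binomial 95% intervals 3.70 to 4.50% and 3.57 to 4.50%). The intervals overlap. These and all later intervals cover counting error only, and they treat loops as independent although some share an end. A gene end lay at 1 bin or both in 33.1% of T30 loops and 38.6% of T0 loops. At both bins it lay in 452 T30 loops and 351 T0 loops, of which 60 and 67 were set aside because the bins had a gene in common. The counted loops carried 5900 contacts in T30 and 5783 in T0, or 4.35% and 4.54% of all contacts. The body of a gene overlapped both bins in 9 of them in T30 (2.30%) and 9 in T0 (3.17%). Among the other loops these shares were 22.6% and 12.4%.

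They spanned shorter distances than the other loops of their list. The median span in T30 was 65 kb (95% interval 55 to 75) against 80 kb (80 to 85) for the other T30 loops. In T0 it was 100 kb (85 to 120) against 195 kb (190 to 200). Spans of 200 kb or more were seen in 11.0% of these loops and 19.1% of the others in T30, and in 24.3% and 49.4% in T0. A set of 37 T0 loops spanned less than 20 kb, a range with no T30 loop. Without them the T0 median span was 120 kb, over 247 loops.

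**Figure D1:**
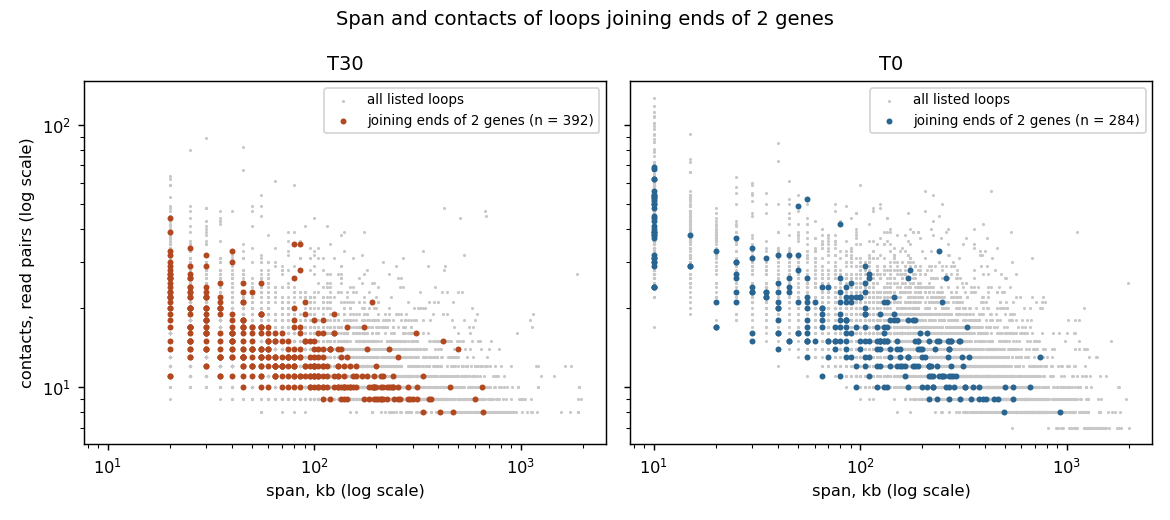
Contacts (read pairs, log scale) against span (kb, log scale) of each listed loop in T30 (left) and T0 (right), with loops joining ends of 2 genes in colour over all listed loops in grey. The coloured points start at 20 kb in T30 and at 10 kb in T0, and reach 44 contacts in T30 and 69 in T0.

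Loops joining ends of 2 genes were a smaller share of long loops than of short ones in both lists. Between 20 and 50 kb it was 4.80% of T30 loops (145 of 3024, 95% interval 4.06 to 5.62%) and 10.8% of T0 loops (39 of 360, 7.82 to 14.5%), and these intervals do not overlap. Below 20 kb, where only T0 has loops, the share was 6.45%. Between 50 and 100 kb it was 4.80% in T30 and 6.87% in T0. From 200 to 500 kb it was 2.62% in T30 and 2.50% in T0, and from 500 kb up 4 loops in T30 and 6 in T0 remained.

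**Figure D2:**
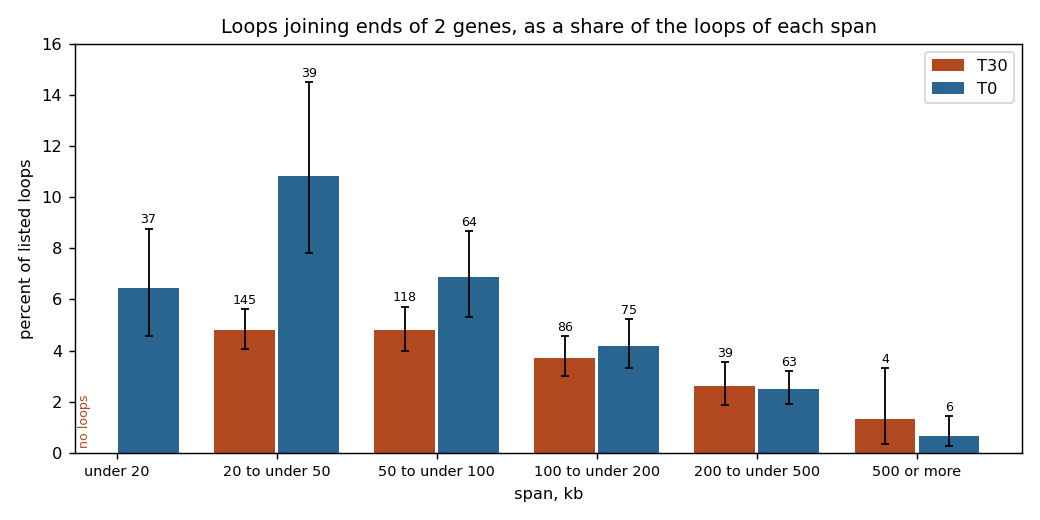
Percent of listed loops that joined ends of 2 genes, by span class in kb, with T30 left of T0 in each class; bars are the share, lines the exact binomial 95% interval, and numbers the count of loops. The T0 bar is the higher one between 20 and 50 kb (10.8% against 4.80% in T30), and the bars are close together from 200 kb up.

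Contacts per loop were close to those of other loops of like span. The median was 13 contacts in T30 (95% interval 13 to 14, range 8 to 44) and 16 in T0 (15 to 18, range 8 to 69), while the other loops had medians of 13 in T30 and 14 in T0. Medians of the span classes were also averaged, weighted by the span classes of these loops. These means were 14.1 for these loops and 13.4 for the others in T30, and 19.04 and 20.3 in T0. Between 20 and 50 kb the median was 18 contacts (17 to 19) against 17 in other T30 loops, and 23 (21 to 25) against 26 in other T0 loops.

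A loop was called listed again when the ranges of its contact clusters overlapped, at both ends, those of a loop in the other list. This held for 73 of the 392 T30 loops (18.6%, 95% interval 14.9 to 22.8%), against 16.4% of all T30 loops. In T0 it held for 60 of 284 (21.1%, 16.5 to 26.3%), against 22.2% of all T0 loops. Both shares are near those of their whole list. Recurrence also varied with span: between 50 and 100 kb it was 23.7% (16.4 to 32.4%) against 13.8% (12.5 to 15.3%) of other T30 loops, and 35.9% (24.3 to 48.9%) against 33.4% (30.3 to 36.7%) of other T0 loops. From 200 to 500 kb it was 25.6% (13.0 to 42.1%) against 29.3% (27.0 to 31.8%) in T30, and 9.52% (3.58 to 19.6%) against 19.2% (17.6 to 20.8%) in T0. With identical bins at both ends, 35 loops were in both lists, which is 8.93% of the T30 loops beside 6.34% of all T30 loops, and 12.3% of the T0 loops beside 8.59% of all T0 loops. With bins within 10 kb the shares were 31.9% beside 27.4% in T30, and 35.9% beside 36.4% in T0. Counted by genes, 75 pairs were joined in both lists, which is 12.5% of the T30 pairs and 16.8% of the T0 pairs. Of 1254 genes at these loops in either list, 178 were in both.

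Of 1389 loops matched one to one between the lists, 42 joined ends of 2 genes in both. Raw contacts were fewer in T30 at 40 of the 42 and more at 2, and the median ratio of T30 over T0 was 0.685 (95% interval 0.609 to 0.769). The median over all 1389 was 0.667, so contacts were scaled by that value before a fold was read. After scaling, the median ratio of the 42 was 1.03 (0.913 to 1.15). One loop was more than 2-fold higher in T30 and none was more than 2-fold lower, where 4.25% and 1.01% of all matched loops were. At 1.5-fold 2 were higher and 0 lower, beside 12.4% and 10.1% of all matched loops. Without scaling 0 were past 2-fold higher and 1 was lower, beside 0.936% and 17.1%.

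That loop joined TOB1, an antiproliferative gene of the BTG family, to the uncharacterised LOC124904102 on chromosome 17. It spanned 80 kb and had 26 contacts in T30 and 19 in T0, with identical bins. The scaled ratio was 2.05 (exact binomial 95% interval 1.09 to 3.92; log2 1.04, 0.13 to 1.97). A second loop lay just under the threshold. It joined ANAPC2, a subunit of the anaphase-promoting complex, and SSNA1 to NDOR1 in T30, with 29 contacts against 22 at the overlapping T0 loop, and its scaled ratio was 1.98 (1.10 to 3.61).

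The loop joining NR6A1, an orphan nuclear receptor, to WDR38, a WD-repeat gene, had 35 contacts in T30 and 42 in T0. It spanned 80 kb, joined the 2 starts, and kept its bins. HAPLN2 and BCAN, both genes of the extracellular matrix of the brain, were joined end to end at 30 kb with 32 contacts in T30 and 34 in T0. TMCC2, a transmembrane coiled-coil gene, was joined to the kinase gene NUAK2 with 23 contacts in T30 and 49 in T0, and its scaled ratio was the lowest of the 42 at 0.704 (0.409 to 1.18). TMCC2 was also joined to KLHDC8A, with 12 contacts in T30 and 24 in T0. PIK3CA, the catalytic subunit of a PI3-kinase, was joined start to start to ZNF639 over 175 kb, with 17 contacts in T30 and 28 in T0. At SNRPE, a core spliceosomal gene, a loop to SOX13 had 13 contacts in T30 and the overlapping loop to ETNK2 had 26 in T0. These 6 loops had intervals of the scaled ratio that include 1.

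**Figure D3:**
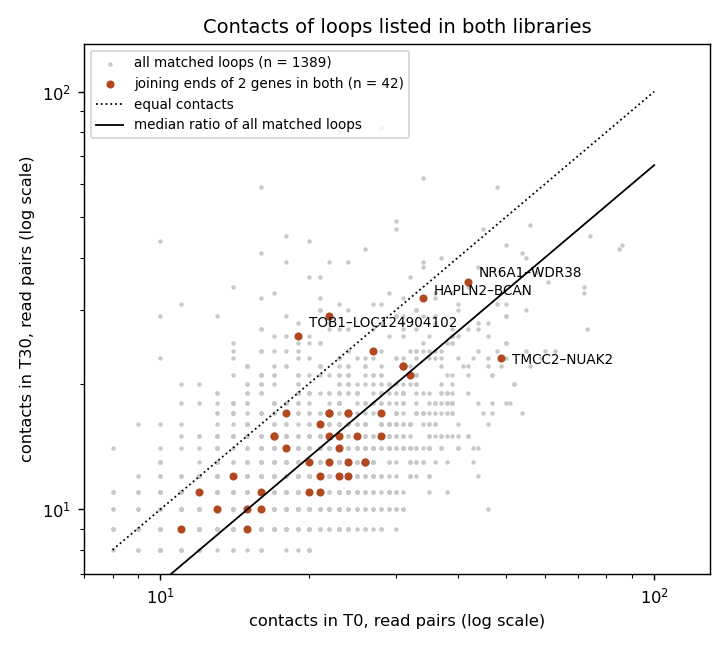
Contacts in T30 (vertical) against contacts in T0 (horizontal), both in read pairs on log scales, for the 1389 matched loops in grey and the 42 that joined ends of 2 genes in both lists in colour. The solid line is the median ratio of all matched loops (0.667), and 40 of the 42 points lie below the dotted line of equal contacts.

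The T30 loops with most contacts included NR6A1 with WDR38 (35) and HAPLN2 with BCAN (32), both listed again in T0 with identical bins. The KRT37 loops to KRT38 (39, at 20 kb) and KRT13 (35, at 85 kb) also ranked high and are given below. ACOT4 and ACOT6, acyl-CoA thioesterases on chromosome 14, were joined start to start at 20 kb with 44 contacts, and no T0 loop lay within 10 kb of both bins. NACA, the alpha subunit of the nascent polypeptide-associated complex, was joined to PRIM1, the small catalytic subunit of DNA primase, with 34 contacts. It was also joined to PTGES3, a co-chaperone of HSP90 and of steroid receptors, with 30. BCKDK and the histone acetyltransferase gene KAT8 were joined to the serine protease genes PRSS8 and PRSS36 with 33. SLC13A2, a dicarboxylate transporter, was joined end to end with FOXN1 with 33, and the lipid transporter ABCA2 was joined to ENTPD2 and NPDC1 with 32. In this paragraph the loops of ACOT4, NACA, BCKDK, SLC13A2 and ABCA2 overlapped no listed T0 loop by the cluster ranges.

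In T0 the loops with most contacts were mostly of the 10 kb span that the T30 list lacks. CREB3L4 and the zinc transporter SLC39A1 were joined to JTB with 69 contacts, and NR4A1, an immediate-early nuclear receptor, to the autophagy gene ATG101 with 68. FASN, fatty acid synthase, was joined to GPS1 and RFNG with 23 contacts at 25 kb in T30, and to DUS1L with 62 at 10 kb in T0. MED1, the Mediator subunit that binds nuclear receptors, was joined to the transcription elongation kinase CDK12 with 52, start to start from opposite strands. CDC6, a replication licensing gene, and RARA, a retinoic acid receptor, were joined with 12 contacts at 70 kb in T30 and with 52 contacts at 55 kb in T0, at other bins. The T0 loop had its match in a T30 loop of 50 kb, 1 bin away, with 20 contacts and a scaled ratio of 0.577 (95% interval 0.326 to 0.983).

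Most genes had a single partner: 67.1% of 805 genes in T30 and 69.4% of 627 in T0. KRT37, a hair keratin, had most partner genes, with 8 in T30 and 0 in T0. Its T30 partners were KRT38 (39 contacts), KRT13 (35), KRT32 (25), KRT34 (23), KRT19 (18), KRT35 (16), KRT23 (14) and KRT33B (13), all of them keratin genes of the chromosome 17 cluster. A T0 loop lay within 10 kb of both bins at the KRT19 loop, where it had 14 contacts, and at none of the other KRT37 loops. NACA had 7 partner genes in T30 and 3 in T0, and only its loop to TAC3, a tachykinin gene, was in both, with 9 contacts in T30 and 11 in T0. NOL3, an inhibitor of apoptosis, had 7 in T30, from 5 loops, and 0 in T0. The strongest of its T30 loops went to E2F4, an E2F repressor, and EXOC3L1, with 29 contacts. AP2M1, a clathrin adaptor subunit, had 6 from 5 loops and ENTPD2, an ectonucleotidase, had 5 from 4 loops, each with 0 in T0.

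**Figure D4:**
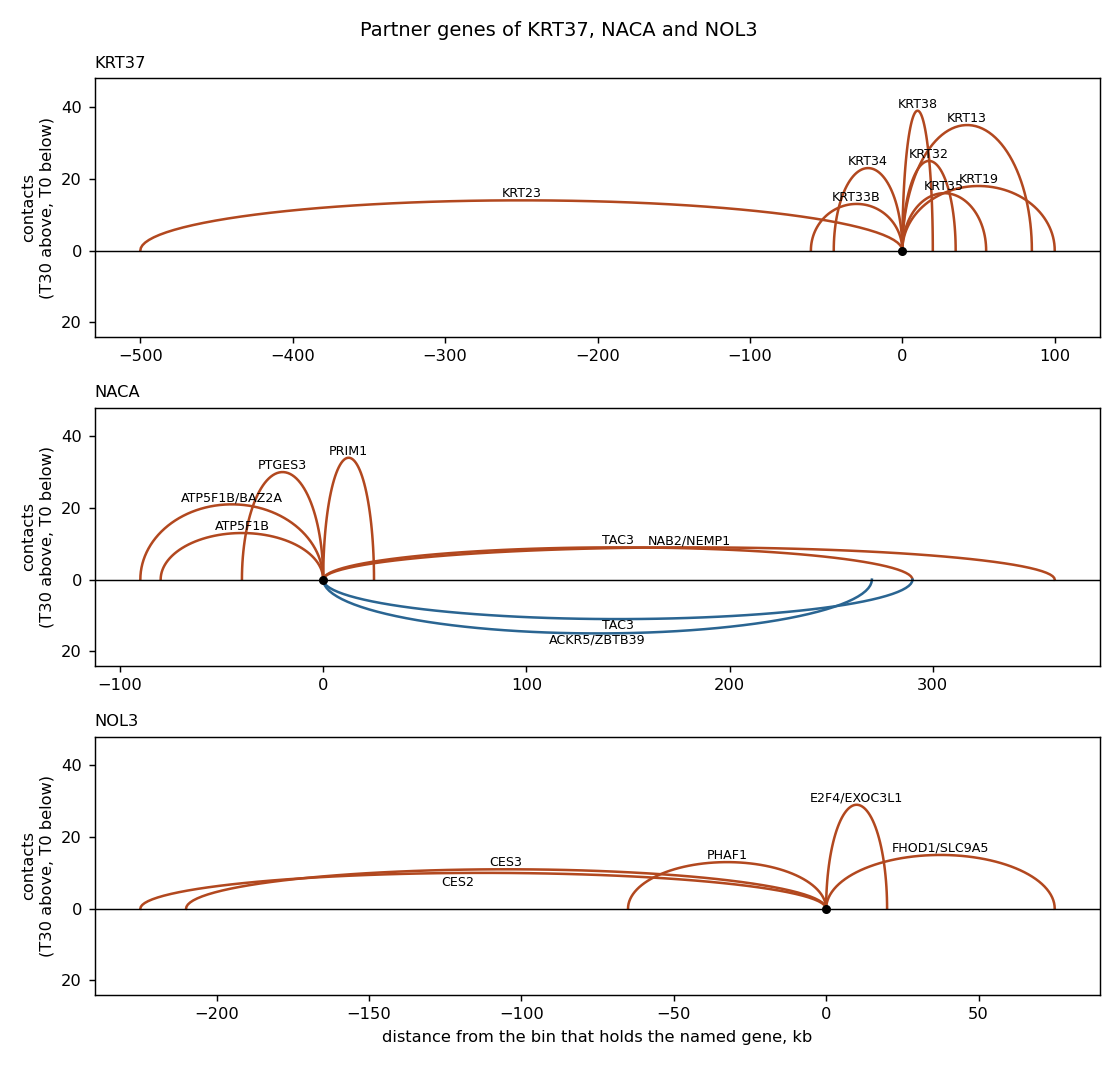
Arcs from the bin of KRT37, NACA and NOL3 to the bins of their partner genes, by distance in kb; the height is the number of contacts, with T30 above the line and T0 below. KRT37 and NOL3 have arcs in T30 only, and NACA has 6 arcs in T30 and 2 in T0.

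In T0 the most partner genes were 5. The histone genes H2AC17, H2BC17 and H3C12, which share a bin, had 0 partners in T30 and 5 in T0, the latter from 3 loops. TAPBP, which helps to load peptides on MHC class I, had 3 in T30 and 5 in T0. CARNS1 and the ribosomal S6 kinase gene RPS6KB2 had 3 in T30 and 5 in T0. PIP5KL1 had 0 in T30 and 4 in T0, but its T0 loops from CDK9 and from SH2D3C had matched T30 loops that ended 10 kb and 5 kb short of its bin. Contacts there were 15 in T30 and 15 in T0 for the CDK9 loop, and 14 in T30 and 18 in T0 for the SH2D3C loop. TMED2, a cargo receptor of the early secretory pathway, had 1 in T30 and 4 in T0.

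Loops that shared a bin formed sets. In T30 238 loops (60.7%) shared no bin with another, and in T0 205 (72.2%) did not. Sets of 3 or more loops held 20.4% of the T30 loops (95% interval 16.5 to 24.7%) and 10.2% of the T0 loops (6.95 to 14.3%). The largest set by loops lay in T30 at chr3:184015001-184315000, with 11 loops and 160 contacts. It held AP2M1, DVL3 (Wnt signalling), EIF4G1 and EIF2B5 (translation initiation), ALG3 (N-glycosylation), ABCC5, CAMK2N2, EEF1AKMT4 and the serotonin receptor gene HTR3D. The KRT37 set came second with 9 loops and 194 contacts over chr17:40920001-41525000. In T0 the largest sets held 5 loops each, with 63 contacts around TMED2 and KMT5A and 56 around ZNF48 and ZNF689.

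Pairs of genes from one family, counted where at least 3 letters came before the first digit of both symbols and were the same, were 31 of 600 pairs in T30 (5.17%, 95% interval 3.54 to 7.25%) and 13 of 446 in T0 (2.91%, 1.56 to 4.93%). The intervals overlap. Among pairs counted this way only PLA2G4D with PLA2G4F, which encode cytosolic phospholipases, was in both, with 13 contacts in T30 and 24 in T0. The rule leaves out families with a shorter stem. One is that of the S100 calcium-binding genes, where S100A2 and S100A6 were joined in both lists with 22 contacts in T30 and 31 in T0. Keratin genes stood at both bins of 13 T30 loops with 242 contacts and of 1 T0 loop with 10 contacts. Of the 13, 8 had KRT37 at a bin. The T0 loop joined KRT12 to KRT19 over 660 kb with 49 genes between. Histone genes stood at both bins of 2 T30 loops with 20 contacts and of 4 T0 loops with 61 contacts. Further T30 pairs were CLDN3 with CLDN4 (tight junction claudins, 17 contacts), MAPK11 with MAPK12 (p38 kinases, 19), CTRB1 with CTRB2 (chymotrypsinogens, 23), SFTPA1 with SFTPA2 (surfactant proteins, 14), and LGALS7 with LGALS7B (galectins, 11). Further T0 pairs were PCDHGC3 with PCDHGC4 and PCDHGC5 (protocadherins, 62), DDX19A with DDX19B (RNA helicases, 39), CDKN2A with CDKN2B (CDK inhibitors, 29) and TUBG1 with TUBG2 (gamma tubulins, 21). The protocadherin loop spanned 10 kb, and the body of PCDHGC3 overlapped both of its bins. Several of these pairs are near-identical copies, as are some histone and keratin genes, and how their reads were assigned is uncertain.

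A bin was called a start when any gene of known strand started in it. It was called an end when all its genes had a known strand and none started there. This rule favours starts in bins with several genes. Both bins had a known kind in 242 T30 loops and 207 T0 loops. Start joined start in 46.3% of the T30 loops (95% interval 39.9 to 52.8%) and 50.7% of the T0 loops (43.7 to 57.7%). Start joined end in 43.0% and 41.5%, and end joined end in 10.7% (26 loops) and 7.73% (16 loops). A start lay in 66.4% of the T30 bins and 71.8% of the T0 bins of known kind. By the same rule 54.3% of all gene-end bins of known kind hold one, and the number of genes per bin was not matched. Loops joining an end to an end were listed again in 10 of 26 cases in T30 (38.5%, 20.2 to 59.4%) and 10 of 16 in T0 (62.5%, 35.4 to 84.8%). Loops joining start to start were listed again in 17.9% and 17.1%. The T30 intervals of the 2 kinds overlap and the T0 intervals do not. The T0 shares include loops under 20 kb, a range with no T30 loop, where 0 of 37 were listed again. Without them start joined start in 47.5% of T0 loops. Recurrence of the kinds was not compared within spans. With 1 gene of known strand at each bin, the genes pointed the same way in 55.2% of 154 T30 loops and 52.8% of 127 T0 loops.

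**Figure D5:**
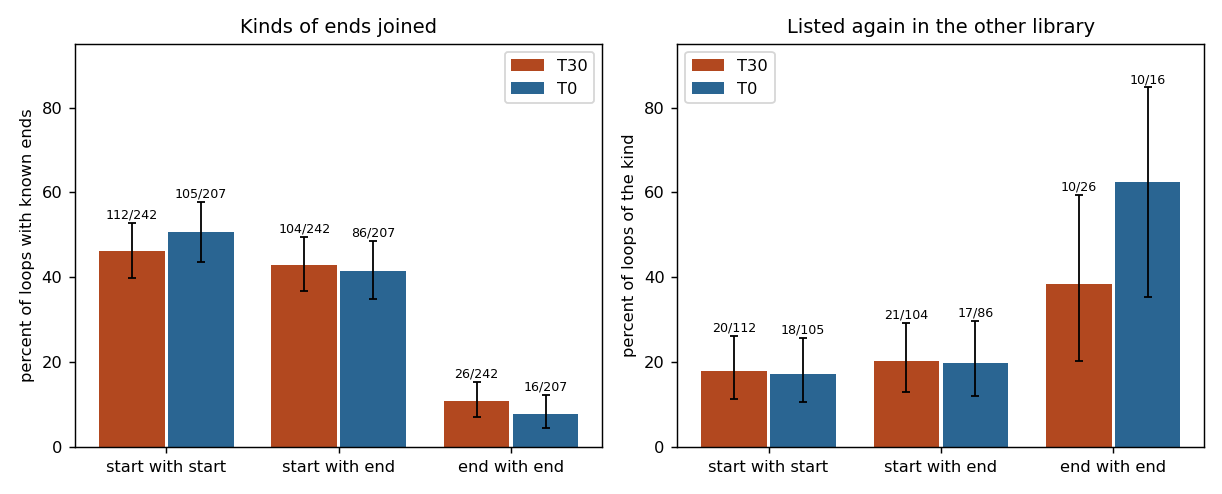
Left, percent of loops with known ends that joined a start with a start, a start with an end, or an end with an end; right, percent of each kind listed again in the other library. T30 stands left of T0, lines are exact binomial 95% intervals and the fractions are counts; the end with end bars are lowest at left (10.7% in T30, 7.73% in T0) and highest at right (38.5% and 62.5%).

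No protein-coding gene lay wholly between the bins in 39.0% of T30 loops and 37.7% of T0 loops, and the median was 1 gene in each. Such loops between adjacent genes had a median of 15 contacts in T30 and 23 in T0, against 13 and 15 where genes lay between. They were also shorter, with median spans of 40 kb in T30 and 40 kb in T0 against 85 and 130 kb, and the part of span in the contacts was not tested. At the far end of the range, IRX3 and IRX5, homeobox genes of one cluster, were joined over 650 kb with 10 contacts in T30. H2AC12 and H2BC12 were joined to H2AC13 and H2BC13 over 660 kb with 8 contacts in T30, and to the H2AC17 bin over 745 kb with 13 contacts in T0. The longest T0 loop joined CCZ1 to CCZ1B, near-identical copies, over 930 kb with 8 contacts. A further T0 loop joined TPCN2 to the cyclin D1 gene CCND1 over 550 kb with 9 contacts.

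By chromosome, 17 held most of these loops, with 56 in T30 and 41 in T0. As a share of a chromosome's loops, 19 stood highest of the 6 examined, at 7.94% in T30 (95% interval 4.70 to 12.4%) and 12.7% in T0 (8.004 to 18.7%). Chromosome 9 had 3.76% in T30 (2.47 to 5.46%) and 7.72% in T0 (4.84 to 11.6%). The intervals of chromosome 9 overlap.

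Genes of known lists were counted at these loops beside 4.03% of all protein-coding genes in T30 and 3.14% in T0. Of 34 progestin target genes, 5 were at a loop in T30 and 2 in T0, with none in both. Of the 34, 21 in T30 and 9 in T0 had an end in the bin of any listed loop, and among all genes with such an end 30.4% in T30 and 27.0% in T0 were at a loop joining ends of 2 genes. FKBP5, a co-chaperone of steroid receptors, was joined in T30 to ARMC12 (22 contacts at 20 kb), to CLPSL1 (12) and to TEAD3 and TULP1 (10 at 230 kb). PER1, a circadian repressor, was joined in T30 to HES7 (16), S100P, a calcium-binding gene, to BLOC1S4 (20), and the metallothionein gene MT2A to MT1E (14) and MT1X (11). The T0 genes were CCND1, given above, and NDRG1, joined to ST3GAL1 with 12 contacts. Luminal breast genes were at loops for 6 of 23 in T30 and 1 of 23 in T0. Of the 23, 11 in T30 and 13 in T0 had an end in the bin of any listed loop. KRT8 and KRT18, which encode the paired keratins of simple epithelia, were joined in T30 with 19 contacts at 55 kb. The matched T0 loop, with its bin 10 kb away on the KRT8 side, had 25 contacts, and the scaled ratio was 1.14 (95% interval 0.594 to 2.16).

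Estrogen response genes numbered 4 of 22 in T30 and 4 in T0, with RARA and KRT19 in both. The insulin-like growth factor binding gene IGFBP4 was joined in T0 to CCR7 with 19 contacts and to RARA with 17. Of 20 cell cycle genes 1 was at a loop in T30, E2F1 joined to ZNF341 (17 contacts), and 4 in T0: CCND1, CDK2, CDKN2A and CDKN2B. Of 22 growth factor and kinase genes 2 were at a loop in each list, with PIK3CA in both. FGFR1 was joined in T30 to LETM2 and NSD3 (16 contacts), and AKT1 in T0 to SIVA1 (16). Of 23 coregulator genes, 1 was found in T30, KMT2D, and 2 in T0, MED1 and ANKRD11. Housekeeping genes numbered 3 of 16 in T30 and 0 in T0, and genes of other tissues 1 of 20 in each. Genes of the mitochondrial ribosome and respiratory chain were 12 of 182 in T30 and 2 in T0. Solute carriers were 26 of 386 in T30 and 15 in T0, and histone genes 8 of 85 in T30 and 12 in T0. Genes with an end in the bin of any listed loop were, in T30 and T0, 5 and 6 for the cell cycle. They were 6 and 5 for housekeeping, 23 and 27 for the mitochondrial list, 62 and 38 for solute carriers, and 11 and 15 for histones. These lists are short, and no test was made of them.

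Promoter windows were searched for the 3 motifs at every start site in a bin of these loops. The response element core was found in 4 of 363 T30 promoters (1.10%, exact binomial 95% interval 0.301 to 2.80%) and 1 of 353 T0 promoters (0.283%, 0.00717 to 1.57%), against 40 of 15812 promoters over all genes (0.253%). The half-site was in 5.51% of T30 and 8.78% of T0 promoters, against 11.2% of all. The CTCF core was in 19 T30 promoters (5.23%, 3.18 to 8.05%) and 10 T0 promoters (2.83%, 1.37 to 5.15%), against 2.72% of all. Promoters in bins of other listed loops were not counted, and base composition was not matched. These shares are therefore not shown to be particular to loops joining ends of 2 genes. A match is a run of letters and is not shown to be a bound site.

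The 5 response element matches are shown on the strand of each gene, in capitals throughout because all letters belong to the motif. They were chosen after their values were seen.
TXNIP: GCACACCGTGTCC
MAP3K6: GCACAGGCTGTTC
EEF2K: GGACACTGTGTAC
EVA1C: GAACACTGTGTGC
ADAM8: GGACAGGCTGTGC
The first 4 lay at T30 loops. TXNIP, a thioredoxin inhibitor, was joined to POLR3GL with 23 contacts, and MAP3K6, a kinase gene that shares its bin with FCN3, to GPR3 with 14. EEF2K, the kinase of translation elongation factor 2, was joined to POLR3E with 15, and EVA1C to CFAP298-TCP10L with 10 and to TCP10L with 10. The EEF2K loop had 15 contacts in T30 and 22 in the matched T0 loop (scaled ratio 1.02, 95% interval 0.493 to 2.06). The EVA1C loop to CFAP298-TCP10L had 10 in T30 and 22 in T0 (scaled ratio 0.682, 0.288 to 1.5). Both intervals include 1. ADAM8, a metalloprotease gene that shares its bin with TUBGCP2, was joined to ZNF511 in T0 with 15 contacts. The matches lie at chr1:145996742-145996754 for TXNIP, chr1:27367101-27367113 for MAP3K6, chr16:22206089-22206101 for EEF2K, chr21:32411722-32411734 for EVA1C and chr10:133277042-133277054 for ADAM8.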

How the data were processed

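T47D cells were profiled by progesterone receptor HiChIP, in 1 library per condition. The authors deposited raw counts: the read pairs that join the 5 kb bins of a loop, and their sum over each cluster. A bias-corrected p-value and q-value accompany every loop, per the file headers, and the authors listed loops up to a q-value of 0.05. The deposited fraction per cluster entered no result. Other deposited columns give positions. Bowtie and the builds hg38 and GRCh38 are named in the submitters' processing notes with no role or version, and the loop calling settings and any pooling are likewise not given in the sources used.

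Gene positions and promoters came from RefSeq tables of GRCh38.p14. Strand was known for the 15812 genes with a promoter, and none on chromosome 8 was used. Loops were matched by cluster ranges overlapping by at least 1 bp at both ends. One to one matches took the smallest shift in bins, then most contacts in T30, then most contacts in T0. Contact ratios were divided by the median over all matched loops and called past 2-fold. Shares have exact binomial (Clopper-Pearson) 95% intervals, medians have binomial order-statistic intervals, and duplicate read pairs may inflate counts.

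Named are the loops with most contacts, recurring, longest or past the fold, the genes with most partner genes or the largest difference in them, same-family pairs and members of gene lists, of which a part is given. The members and lists were chosen with earlier results of these data known. Alternatives covered the q-value, contacts, list length, bin width, gene sets, span, overlap, scaling and fold. Simulated data covered only the rule for counting a loop, with loops planted by that same rule, and the calling of folds. Recurrence, kinds of ends, family pairs, partner genes and sets were not simulated. The software was Python 3.11.15 with scipy 1.17.1, pandas 2.3.3, matplotlib 3.10.9 and numpy 2.4.6. Some of the named-gene results are not reported here.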

Additional observations from a re-analysis of the deposited data

How the results depend on the processing

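No paired analysis was possible because each condition was 1 library. Of 147 values recomputed under other settings, 123 stayed within the interval of the main value or, for counts, within 1.5 times of it. Some of these could not move. The T30 list already starts at 20 kb, the least span tried, and lists of equal length keep the whole T0 list. With a q-value under 0.01 the counts were 226 loops in T30 and 154 in T0, the median contacts 16 and 19, the gene pairs in both lists 45, and the T0 loops listed again 27.3%. With bins widened by 2500 bp the counts were 844 and 653, the shares 8.80% and 9.23%, the gene pairs in both lists 306, and start joined start in 54.1% of T30 loops. Loops listed again were 8.93% in T30 and 12.3% in T0 with identical bins, and 31.9% and 35.9% with bins within 10 kb. With lists of equal length the T30 median was 15 contacts. The weighted mean of the span class medians was 14.1 contacts in T30 and 19.04 in T0. Without scaling the median ratio was 0.685, with 0 loops past 2-fold higher and 1 lower, beside 0.936% and 17.1% of all matched loops. At 1.5-fold 2 loops were higher, beside 12.4% of all, and without LOC genes 0 were past 2-fold higher. The cause was not tested beyond what each setting changes by construction. Single libraries and unknown depth limit every difference between T30 and T0.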
